A study of Mus musculus with 4 samples.

Results

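The 10 genes described here encode the interleukin-1 cytokines, their antagonist and main receptor, and the parts of the inflammasome, measured in mouse inferior vena cava on whole-transcript arrays. They were chosen by symbol as parts of this pathway, with earlier results of these data known, and each was read from the 1 probe set of the platform that carries its symbol alone. They are 10 of 18820 genes named this way, and all 10 passed the filter on dim genes, which left 14115 for comparison. Il1a passed it narrowly, with a mean of 2.30 log2 against a limit of 2.29, and did so through the single array on which it was high.

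The 4 groups were wild-type C57BL/6J mice after sham surgery, wild-type mice with the vein ligated below the kidneys for 48 h, Cd39-/- mice after sham surgery and Cd39-/- mice with 48 h of ligation. CD39, the product of Entpd1, is an ecto-enzyme that removes extracellular ATP and ADP. Mice of both genotypes were 8 to 10 weeks old and had been backcrossed for at least 8 generations. RNA of 4 mice was pooled for each group and each pool was read by 1 array, so a difference between arrays has no replicate check, and the spread between mice is unknown. The labels do not say whether ligation was complete or partial for these pools, whether clot was in the RNA, or which pools were male or female. Entpd1 was 7.11 log2 in sham and 6.17 in ligated wild-type vein, beside 4.16 in sham Cd39-null vein and 6.14 for the remaining array. That last level goes against its genotype label, so this array is named by its label throughout, and each direction drawn from it rests on that label.

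Interleukin-1 alpha and beta are alarm cytokines that act on vessel wall cells and leukocytes through the receptor encoded by Il1r1, and the protein of Il1rn competes for that receptor without signalling. Interleukin-1 beta and interleukin-18 are made as inactive precursors. The sensor NLRP3 recruits the adapter ASC (Pycard) and caspase-1, which cuts both precursors as well as gasdermin D, the protein that then opens pores in the cell membrane. NLRP3 is classically triggered by extracellular ATP acting on P2X7, which is the nucleotide that CD39 degrades. Transcript levels show none of this cutting, which happens at the protein level.

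The RefSeq table (GRCm38.p6) used for names places Il1a next to Il1b, and Casp1 next to Casp4. RefSeq promoter sequence matched 9 of the 10 genes, in 14 windows of 250 bases before an annotated start. The windows were searched on both strands for 7 letter strings, and the share of 32851 such windows in the table that hold each is given beside it. No member window held the NF-kB string, GGGA and TTCC with any 2 bases between (1.21% of all windows), its narrower form with T as the second of those bases, which every match of the first form with that base also is (0.356%), or the interferon response string, GAAA repeated with any 2 bases between (2.98%). The AP-1 string TGANTCA (6.75%) was found before Il1a, as TGACTCA starting 12 bases upstream of the start, and before Il1rn, as TGAGTCA starting 141 bases upstream. The C/EBP string TTGCNNAA (9.56%) was found before Il1r1 and Pycard, and the PU.1 string GAGGAAGT (2.44%) before Pycard. The string TATAAA (12.4%), added to the search after the data were seen, was found 31 bases before the Il1b start, 32 before Il1a and, on the other strand, 175 before Il18. The Casp4 windows held GGGATTTCCC, which neither NF-kB form searched covers, since both fix the last letters as TTCC. Other forms of the NF-kB string, which allow more letters there, were not searched. The absence of a match thus holds only for the forms searched. A match is only a description of these letters, and the absence of one says nothing of the factor.

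Stretches before 4 genes are shown, 5′ to 3′ on the gene's own strand, with the strings found in capitals. Il1b had the largest ligation differences of the 10 genes, Il1rn is its antagonist and had the next largest in the pair labelled Cd39-null, Il1a held the AP-1 string as Il1rn did, and Pycard, which differed by less than 2-fold in every comparison, held the C/EBP and PU.1 strings. Bases inside the annotated gene were left off, except for the 30 bases shown for Il1a. That stretch begins inside the TATAAA string of Il1a, whose remaining letters are in lower case. The positions are chr2:129371165-129371389 on the minus strand for Il1b, chr2:24336610-24336859 on the plus strand for Il1rn, chr2:129309973-129310002 on the minus strand for Il1a and chr7:127993868-127994117 on the minus strand for Pycard.
Il1b: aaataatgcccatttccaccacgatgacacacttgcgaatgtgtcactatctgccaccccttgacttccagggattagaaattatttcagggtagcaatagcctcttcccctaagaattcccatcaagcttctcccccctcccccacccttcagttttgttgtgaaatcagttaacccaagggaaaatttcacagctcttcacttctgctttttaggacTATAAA
Il1rn: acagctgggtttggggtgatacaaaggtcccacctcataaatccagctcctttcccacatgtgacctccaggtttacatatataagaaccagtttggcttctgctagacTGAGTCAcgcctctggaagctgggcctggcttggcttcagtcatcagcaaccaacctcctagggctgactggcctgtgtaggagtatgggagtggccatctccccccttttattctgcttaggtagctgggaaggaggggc
Il1a: taaaaaggcagagaagccTGACTCAgactt
Pycard: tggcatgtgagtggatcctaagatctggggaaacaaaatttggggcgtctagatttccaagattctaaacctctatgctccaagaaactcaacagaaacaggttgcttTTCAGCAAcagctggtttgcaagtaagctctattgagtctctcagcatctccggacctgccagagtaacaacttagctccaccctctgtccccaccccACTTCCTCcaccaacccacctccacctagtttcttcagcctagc

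Values are log2 expression, on which a difference of 1 is a 2-fold difference. Levels of different genes come from different probes and are not set against each other. As a stand-in for background, the 95th percentile of 1006 olfactory receptor probe sets lay between 2.66 and 2.97 log2 on the 4 arrays. Of the 10 genes, 8 were above it on every array. Il1a was above it only on the array labelled Cd39-null, ligated, and Nlrp3 only on the ligated arrays. In bulk tissue, a difference in the number of cells of a type and a difference in RNA per cell cannot be told apart.

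**Figure D1:**
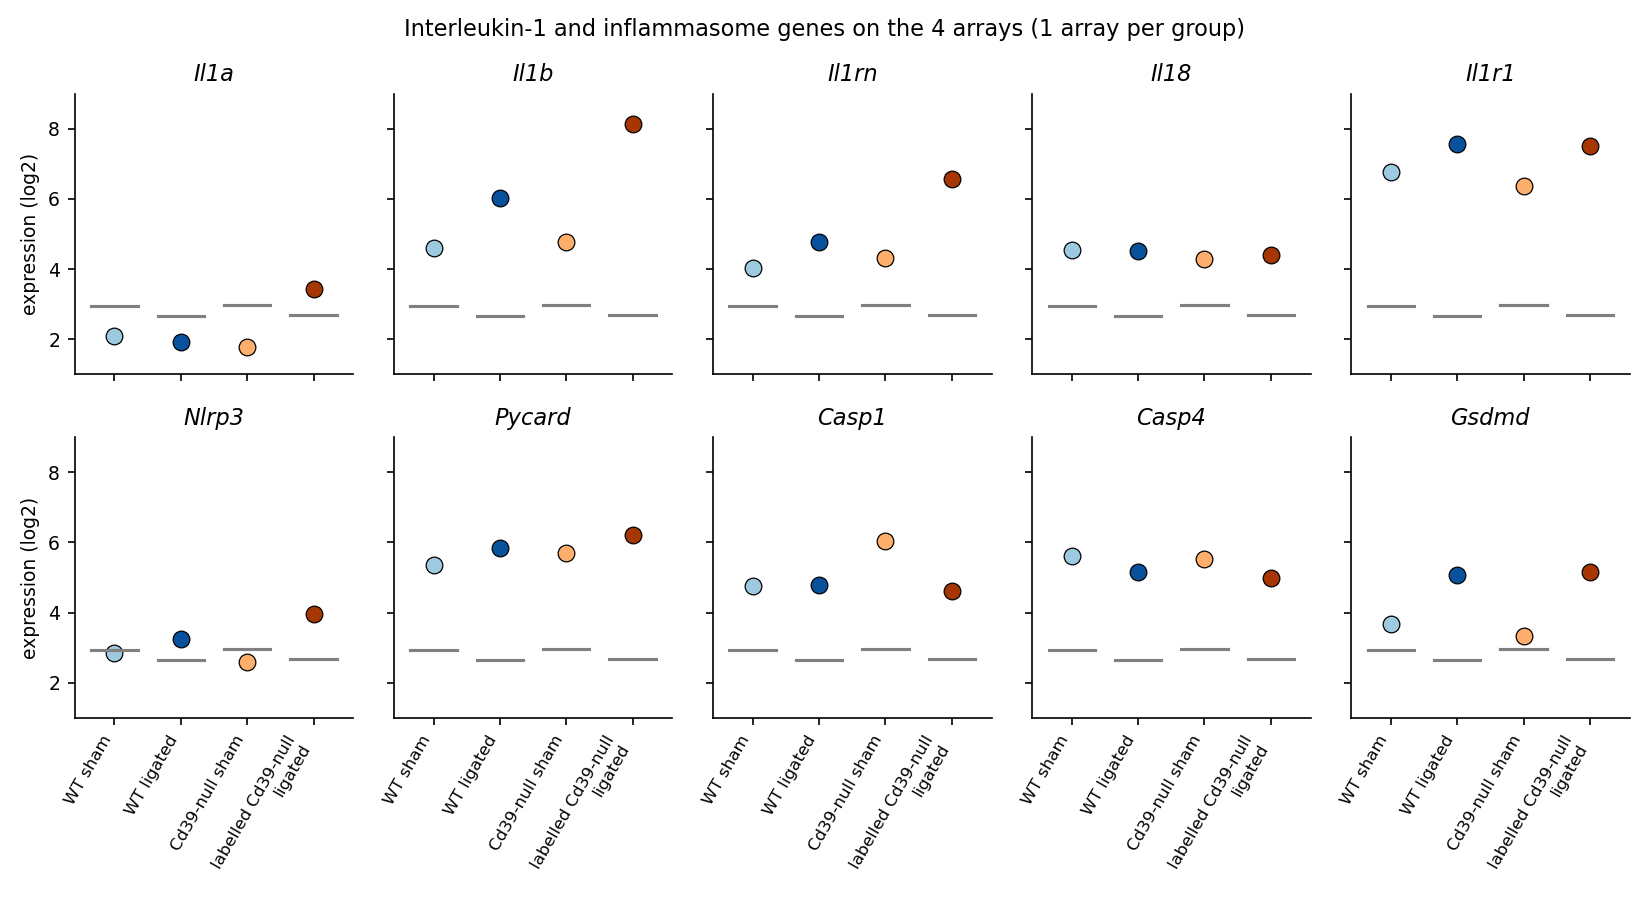
Each panel plots 1 gene's log2 expression (vertical axis) on the 4 arrays (horizontal axis), with 1 point per array and no error bar, since each group is 1 pool. Grey bars mark the olfactory receptor background of each array; Il1b reaches 8.12 on the array labelled Cd39-null, ligated, Casp1 peaks at 6.03 in Cd39-null, sham, and Il18 stays between 4.29 and 4.55.

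Il1b and Gsdmd were at least 2-fold higher on the ligated than on the sham array of both pairs, wild type and the pair labelled Cd39-null, and Il1rn, Il1a, Il1r1 and Nlrp3 were so in the latter pair alone, as measured. Il18 and Casp4 differed less than 2-fold in every pair. In wild type, 2 of 10 genes were at least 2-fold higher after ligation, against 6.6% of the 14115 genes, and 0 were at least 2-fold lower, against 3.63%. In the pair labelled Cd39-null, 6 of 10 were at least 2-fold higher, against 10.9% of all genes, and 1, Casp1, was lower, against 5.8%. The median difference of the 10 genes, as measured, was 0.45 log2 in wild type and 1.25 in the pair labelled Cd39-null, beside -0.01 and 0.03 over all genes. The 1.25 includes Il1a and Nlrp3 at 1.66 and 1.38, which were 0.46 and 0.98 with the sham array set at its background. It is thus raised by values under background. Of the 6 higher genes, Il1a and Nlrp3 were at or under background in the sham array, and with every value raised to at least its array's background the count was 4 of 10, against 10.4% of all genes. The Il1r1 difference was under 2-fold after any of 3 rescalings of the arrays, with 0.90 log2 after a repeated quantile normalisation, 0.91 after cyclic loess and just under the line, at 0.998, after centring on the median. In this pair the share of higher genes among all those at least 2-fold apart was 65.3% as deposited, 51.5% after repeated quantile normalisation, 54.5% after cyclic loess and 52.6% after centring on the median, which moved the median of all genes by -0.13 log2.

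**Figure D2:**
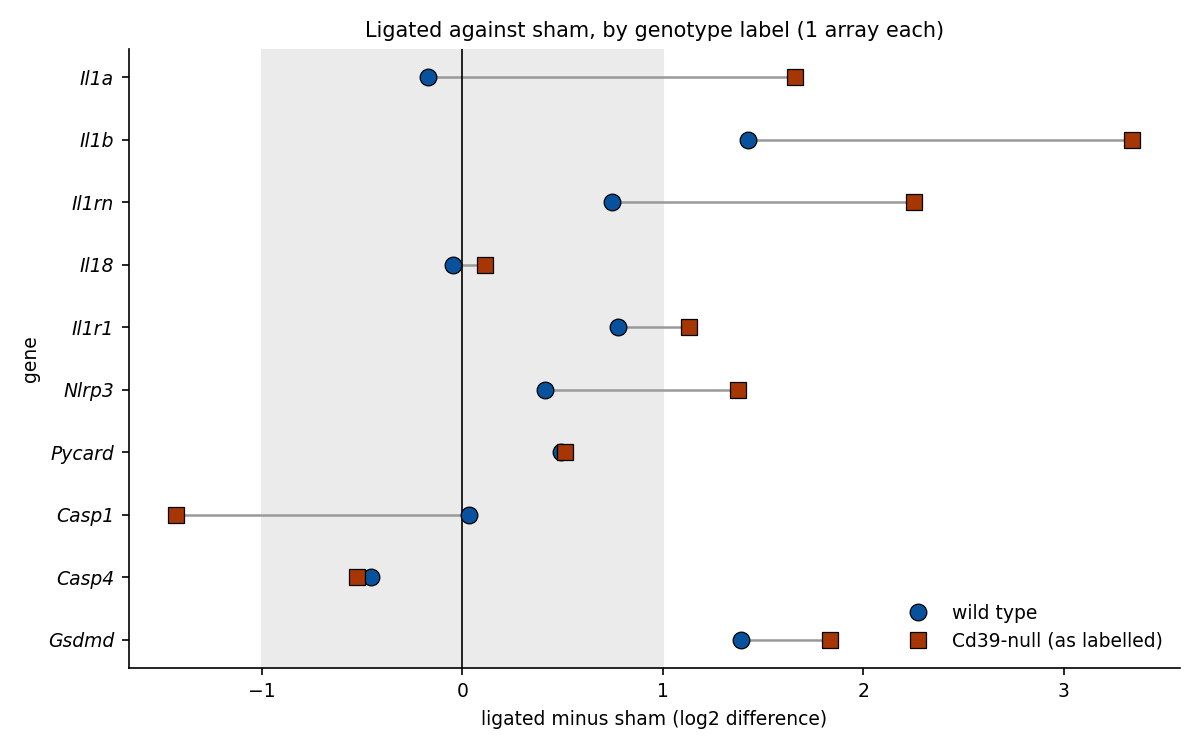
The log2 difference of ligated minus sham (horizontal axis) is plotted for each of the 10 genes (vertical axis), with circles for wild type and squares for the pair labelled Cd39-null; the grey band marks differences under 2-fold. Il1b lies furthest right in both pairs, at 1.42 and 3.34, and Casp1 is the gene beyond the band on the left, at -1.43 in the pair labelled Cd39-null.

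Il1b, the inducible interleukin-1 of myeloid cells, was 4.60 log2 in sham and 6.02 in ligated wild-type vein, beside 4.78 in sham Cd39-null vein and 8.12 for the array labelled Cd39-null, ligated. The sham arrays were thus close together and both ligated arrays lay above them. Ligation went with 2.68-fold more Il1b in wild type and 10.1-fold more in the pair labelled Cd39-null, ranks 407 and 58 from the top among 14115 genes. Its promoter stretch, shown above, held the TATAAA letters and none of the other strings. Between its lowest and highest array Il1b spanned 3.52 log2, a wider range than 99.3% of the genes kept.

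Il1a, which is active without caspase-1 cutting and is held in cells until they are damaged or stimulated, was 2.08 log2 in sham and 1.91 in ligated wild-type vein, beside 1.78 in sham Cd39-null vein and 3.44 for the array labelled Cd39-null, ligated. The first 3 values are not above background and have no order. The pair labelled Cd39-null differed by 1.66 log2 as measured, and by at least 1.38-fold when the sham array is set at its background. Whether Il1a differed in wild type, as its neighbour Il1b did, was not detectable.

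Il1rn, the antagonist, was 4.03 log2 in sham and 4.77 in ligated wild-type vein, beside 4.30 in sham Cd39-null vein and 6.56 for the array labelled Cd39-null, ligated. It had the same order of arrays as Il1b, with smaller ligation differences in both pairs. It was 1.68-fold higher after ligation in wild type and 4.77-fold higher in the pair labelled Cd39-null. The ligation difference of Il1b exceeded that of Il1rn by 0.68 log2 in wild type and by 1.09 in the pair labelled Cd39-null, and no test of these gaps exists with 1 array a group.

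Il18, the other cytokine that caspase-1 releases, was 4.55 log2 in sham and 4.50 in ligated wild-type vein, beside 4.29 in sham Cd39-null vein and 4.40 for the array labelled Cd39-null, ligated. These 4 values lie within 0.26 log2, a range smaller than that of most genes, at the 8.47th percentile. Its ligation differences were -0.05 in wild type and 0.11 in the pair labelled Cd39-null, and the latter turned negative after each rescaling. In these pools the transcripts of the caspase-1 substrates thus had unlike patterns, with Il1b differing by 3.23 log2 more than Il18 in the pair labelled Cd39-null.

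Il1r1, the signalling receptor present on endothelial, smooth muscle and stromal cells, was 6.77 log2 in sham and 7.55 in ligated wild-type vein, beside 6.37 in sham Cd39-null vein and 7.50 for the array labelled Cd39-null, ligated. Both ligated arrays were above both sham arrays and close to each other. The differences were 1.72-fold in wild type and 2.19-fold in the pair labelled Cd39-null.

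Nlrp3, the sensor, was 2.84 log2 in sham and 3.25 in ligated wild-type vein, beside 2.58 in sham Cd39-null vein and 3.96 for the array labelled Cd39-null, ligated. With the sham arrays set at their background, it was at least 1.24-fold higher after ligation in wild type and at least 1.98-fold higher in the pair labelled Cd39-null. Pycard, the adapter, was 5.36 log2 in sham and 5.85 in ligated wild-type vein, beside 5.71 in sham Cd39-null vein and 6.22 for the array labelled Cd39-null, ligated. Its ligation difference was almost the same in both pairs, 0.49 and 0.51 log2, although the second was 0.22 after repeated quantile normalisation.

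Casp1, the protease at the centre of the inflammasome, was 4.75 log2 in sham and 4.79 in ligated wild-type vein, beside 6.03 in sham Cd39-null vein and 4.60 for the array labelled Cd39-null, ligated. The Cd39-null, sham array stood apart and the other arrays lay close together. The pair labelled Cd39-null therefore differed by -1.43 log2, or 2.69-fold lower after ligation, whereas the wild-type pair differed by 0.03. Against wild type, sham, the array labelled Cd39-null, ligated, differed by -0.15, so the lower Casp1 rests on its sham reference. That reference array also carried the highest B cell, T and NK cell and adipocyte markers, given below.

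Casp4, the mouse caspase-11 that senses intracellular lipopolysaccharide and also cuts gasdermin D, was 5.61 log2 in sham and 5.15 in ligated wild-type vein, beside 5.51 in sham Cd39-null vein and 4.99 for the array labelled Cd39-null, ligated. It was lower after ligation in both pairs, by less than 2-fold, at -0.46 and -0.52 log2. It did not share the high value of its neighbour Casp1 in Cd39-null, sham.

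Gsdmd, which encodes the pore-forming protein, was 3.67 log2 in sham and 5.06 in ligated wild-type vein, beside 3.32 in sham Cd39-null vein and 5.16 for the array labelled Cd39-null, ligated. The ligated arrays were close together and well above the sham arrays. The differences were 2.62-fold in wild type and 3.56-fold in the pair labelled Cd39-null. Il1b and Gsdmd were the 2 of 10 genes at least 2-fold higher in both pairs, which share no array, against 3.63% of all genes, and 0 of 10 were lower in both, against 1.45%.

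A test across arrays was available from an additive model of genotype and ligation in limma, with Benjamini-Hochberg adjustment over the 14115 genes. For ligation, 0 of the 10 genes and 0 of the 14115 (0%) reached an adjusted limma p under 0.05. Unadjusted, 5 of 10 had a limma p under 0.05 in the higher direction, against 13.2% of all genes, and 0 of 10 in the lower, against 7.79%. After each of the 3 rescalings Casp4 was also under 0.05 by limma in the lower direction, with p between 0.0287 and 0.0458. With values raised to background, 3 of 10 were under 0.05 by limma in the higher direction, against 1709 of the 14115 genes. They were Il1r1, Pycard and Gsdmd. In the lower direction 1 of 10 was, Casp4, against 1033 of the 14115 genes. Il1b, Il1rn and Nlrp3 were not under 0.05 in this fit. Il1b and Il1rn were above background on every array and kept the same differences, but the refitted error gave them an SE of 0.65 and 0.51 log2. Gsdmd had the smallest adjusted limma p of the 10, 0.0952, with a mean ligation difference of 1.61 ± 0.24 log2 (SE). Il1b had a difference of 2.38 ± 0.50 (limma adjusted p 0.119), Il1r1 of 0.95 ± 0.24 (0.142), Il1rn of 1.5 ± 0.41 (0.161) and Nlrp3 of 0.89 ± 0.31 (0.213). All 5 were higher after ligation in both pairs. For genotype, 0 of 10 genes and 0 of 14115 (0%) passed by limma, and 0 of the 10 had an unadjusted p under 0.05, against 2.28% of all genes higher and 4.65% lower. Under the rescalings Il1rn had a limma p for genotype of 0.0426, 0.0475 and 0.0374, higher as labelled Cd39-null. Il1b had one of 0.0488 after median centring, in the same direction. The genotype term takes the array labelled Cd39-null, ligated, at its label. As deposited, Il1rn differed by 0.28 log2 between the sham arrays and by 1.79 between the ligated arrays. The error of the additive model rests on 1 residual degree of freedom, into which unequal responses of the genotypes also fall.

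In sham veins Casp1 was 2.42-fold higher in Cd39-null than in wild type, the only one of the 10 genes at least 2-fold apart, against 2.95% of all genes higher and 3.54% lower. The other 9 differed by between -0.40 (Il1r1) and 0.35 log2 (Pycard). Casp1 ranked 220 from the top among the 14115 genes in this comparison.

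Between the ligated arrays, Il1b, Il1rn and Il1a were at least 2-fold higher as labelled Cd39-null than in wild type, and the other 7 genes, Il18 among them, were within 2-fold. Il1b was 4.28-fold higher, Il1rn 3.45-fold higher and Il1a 2.87-fold higher as measured, the last at least 1.71-fold with wild type set at its background. These 3 of 10 genes compare with 3.61% of all genes at least 2-fold higher, and 0 of 10 were lower, against 2.66%. With values raised to background, 2 of 10 remained at least 2-fold higher, Il1b and Il1rn, against 3.49%. Nlrp3 differed by 0.70 log2 and Pycard by 0.37. Gsdmd (0.09), Il1r1 (-0.04), Il18 (-0.10), Casp4 (-0.16) and Casp1 (-0.19) differed by less than 0.20 log2 between the ligated arrays. Entpd1 differed by -0.03 between these arrays, so the comparison is between labels.

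**Figure D3:**
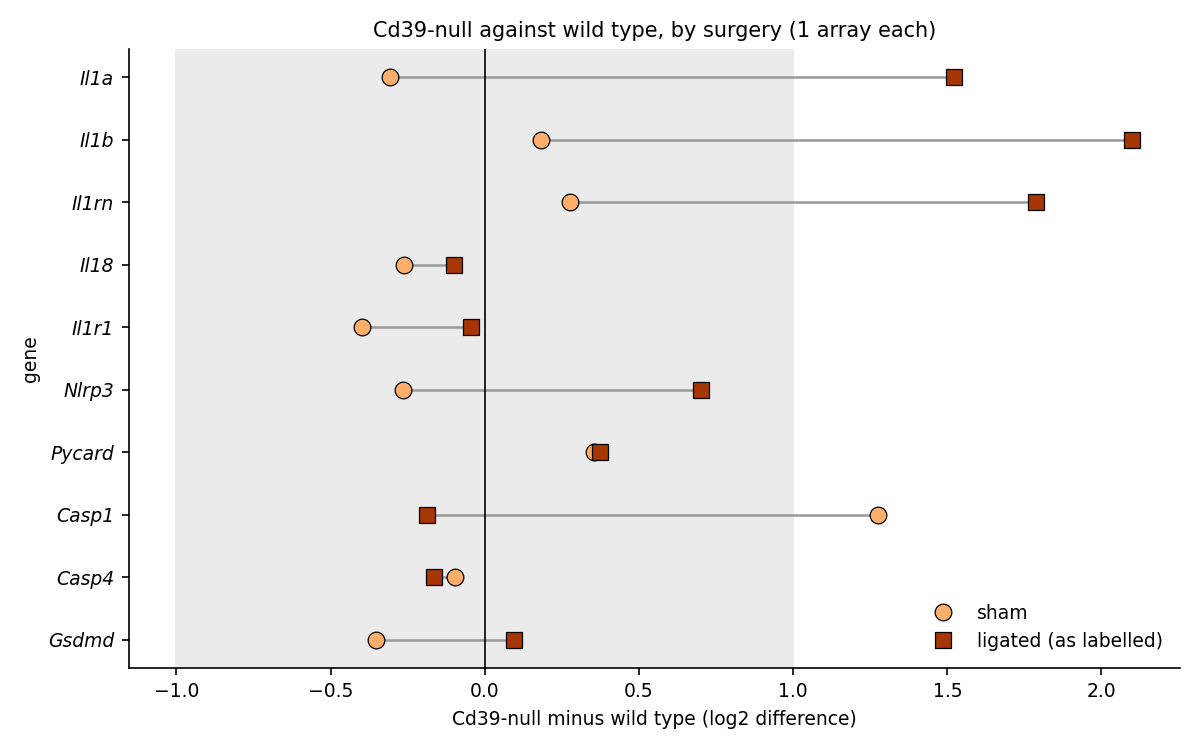
The log2 difference of Cd39-null minus wild type (horizontal axis) is plotted for each gene (vertical axis), with circles for the sham arrays and squares for the ligated arrays as labelled; the grey band marks differences under 2-fold. Il1a, Il1b and Il1rn leave the band only among the ligated arrays, at 1.52, 2.10 and 1.79, and Casp1 only among the sham arrays, at 1.27.

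The difference between the ligation differences, pair labelled Cd39-null minus wild-type pair, was 1.92 log2 for Il1b, 1.83 for Il1a, 1.51 for Il1rn and 0.97 for Nlrp3. It was -1.46 for Casp1. The remaining 5 genes lay between -0.07 (Casp4) and 0.45 (Gsdmd). At least 2-fold apart were 3 of 10 genes on the higher side, against 6.99% of all genes, and 1 of 10 on the lower side, against 5.5%. Raised to background, the value of Il1a was 0.74 and that of Nlrp3 0.67, and 2 of 10 genes were on the higher side, against 6.51%. With 4 arrays this quantity leaves no residual spread, and it was not tested.

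Around the 10 genes, 71 others of the pathway were measured, in 7 lists drawn up from textbook roles. In wild type 11 were at least 2-fold higher and 2 lower after ligation, and in the pair labelled Cd39-null 28 were higher and 2 lower. Over all genes kept, the shares are the 6.6% higher and 3.63% lower given above for wild type and the 10.9% and 5.8% for the pair labelled Cd39-null, and each list below is to be read beside them. Where a gene was under background on 1 array of a pair, its difference is given as at least the value reached with that array set at its background. Their median ligation difference was 0.23 log2 in wild type and 0.70 in the pair labelled Cd39-null, beside the medians near 0 of all genes given above. Of 61 that passed the filter on dim genes, 0 passed the adjusted limma p for ligation, and 20 had an unadjusted limma p under 0.05 on the higher side and 5 on the lower, beside 13.2% and 7.79% of all genes.

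Among the other ligands and binding proteins of the interleukin-1 family, 1 of 7 was at least 2-fold higher in wild type and 2 of 7 in the pair labelled Cd39-null, with medians of -0.05 and -0.04. The higher one in both was Il36g, listed as Il1f9 on the platform and the gene of an epithelial and myeloid interleukin-1 relative. It was 3.02 log2 in sham and 4.03 in ligated wild-type vein, beside 2.80 in sham Cd39-null vein and 6.66 for the array labelled Cd39-null, ligated. Both ligated arrays lay above the sham arrays, of which the Cd39-null one was under background, so that its difference was at least 3.69 log2 in that pair and 1.02 in wild type. Il33, an alarm cytokine of stromal and endothelial nuclei, differed by 0.55 and 1.77 log2. The relatives Il1f10 and Il36b (Il1f8) were at or under background on all arrays.

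Of the other receptors of the family, 0 of 6 in wild type were at least 2-fold higher after ligation, and in the pair labelled Cd39-null 3 of 6 were, with medians of -0.17 and 1.30. Il1r2, the decoy receptor that binds interleukin-1 without signalling, was 3.99 log2 in sham and 3.95 in ligated wild-type vein, beside 3.59 in sham Cd39-null vein and 7.52 for the array labelled Cd39-null, ligated. That single array stood 3.57 log2 above wild type, ligated, while Il1r1 differed by -0.04 between the same arrays. The accessory chain Il1rap had ligation differences of -0.29 and 1.91, and Il18rap, the accessory chain of the interleukin-18 receptor, under background on both sham arrays, was higher by at least 2.28 in the pair labelled Cd39-null. Il1rl2, the receptor for the interleukin-36 cytokines, differed by 0.86 and at least 0.58.

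Of 11 genes of interleukin-1 receptor signalling, 1 was at least 2-fold higher in wild type and 4 in the pair labelled Cd39-null, with medians of 0.12 and 0.79. Myd88, the adapter that couples the receptor to its kinases, was 3.83 log2 in sham and 5.46 in ligated wild-type vein, beside 4.05 in sham Cd39-null vein and 6.07 for the array labelled Cd39-null, ligated. It was the gene of this list at least 2-fold higher in both pairs, and had an adjusted limma p of 0.0952 with a difference of 1.83 ± 0.24 (SE). The kinase Irak2 differed by -0.14 and 1.84, and Tollip, an inhibitor of the receptor's kinases, by 0.06 and 1.52. Tab1, a subunit of the kinase complex downstream, was above background on 1 of 4 arrays.

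Of 10 other inflammasome sensors and adapters, 2 were at least 2-fold higher in wild type and 4 in the pair labelled Cd39-null, with medians of 0.63 and 0.85. Aim2, which senses cytosolic DNA, was 4.23 log2 in sham and 5.47 in ligated wild-type vein, beside 5.71 in sham Cd39-null vein and 6.78 for the array labelled Cd39-null, ligated. It was higher with ligation in both pairs (1.24 and 1.07) and higher in Cd39-null by label in both surgeries (1.47 and 1.31), a pattern that none of the 10 genes had at these sizes. Mefv, which encodes the sensor pyrin, differed by 0.57 and at least 2.04 with ligation. The receptors for bacterial flagellin and secretion proteins Naip2 and Naip5 differed by 0.69 and 2.53 and by 0.86 and at least 1.83.

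Of 6 other inflammatory caspases and pore proteins, 2 were at least 2-fold higher and 1 lower in wild type, and 1 higher and 1 lower in the pair labelled Cd39-null, with medians of 0.30 and -0.05. Ninj1, which ruptures the membrane after gasdermin pores have formed, differed by 1.38 and 2.61 log2, in the same direction as Gsdmd. Casp12 was lower in both, by -1.17 and -1.66. Casp8, which joins inflammasome and death receptor complexes, was 5.89 log2 in wild type, sham, and between 6.83 and 6.99 on the other 3 arrays. Gsdme, the gasdermin cut by caspase-3, differed by 0.24 and 0.83.

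Among 9 triggers and modulators of the inflammasome, 1 was at least 2-fold higher and 1 lower in wild type, and 2 higher and 1 lower in the pair labelled Cd39-null, with medians of 0.25 and 0.30. P2rx7, the ATP-gated channel that triggers NLRP3, was 4.19 log2 in sham and 5.89 in ligated wild-type vein, beside 4.89 in sham Cd39-null vein and 5.06 for the array labelled Cd39-null, ligated. Its highest array was wild type, ligated, whereas that of Il1b was the array labelled Cd39-null, ligated. P2rx7 had ligation differences of 1.70 and 0.17. Gbp5, an interferon-induced GTPase that promotes inflammasome assembly, differed by -0.88 in wild type and was under background on the array labelled Cd39-null, ligated, where its sham array was 4.18. The fungal glucan receptor Clec7a differed by 0.25 and at least 1.86, and its adapter Card9 was above background only on the ligated arrays.

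Of 22 genes known to be induced by interleukin-1, 4 were at least 2-fold higher in wild type and 12 in the pair labelled Cd39-null, beside 6.6% and 10.9% of all genes, and 0 were lower in either, with medians of 0.18 and 1.18. Ccl2, a monocyte chemoattractant, differed by 2.91 and 3.20 log2, with all 4 arrays above background. Cxcl5, a neutrophil chemoattractant, was under background on both sham arrays and differed by at least 2.26 and 3.40. Il6 was under background in wild type, sham, and differed by at least 1.34 in wild type and by 4.40 in the other pair. Cxcl2, another neutrophil chemoattractant, differed by 0.92 in wild type and, with Cd39-null, sham, under background, by at least 5.47 in the other pair. Many other signals induce these genes, and whether interleukin-1 did so here was not tested.

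**Figure D4:**
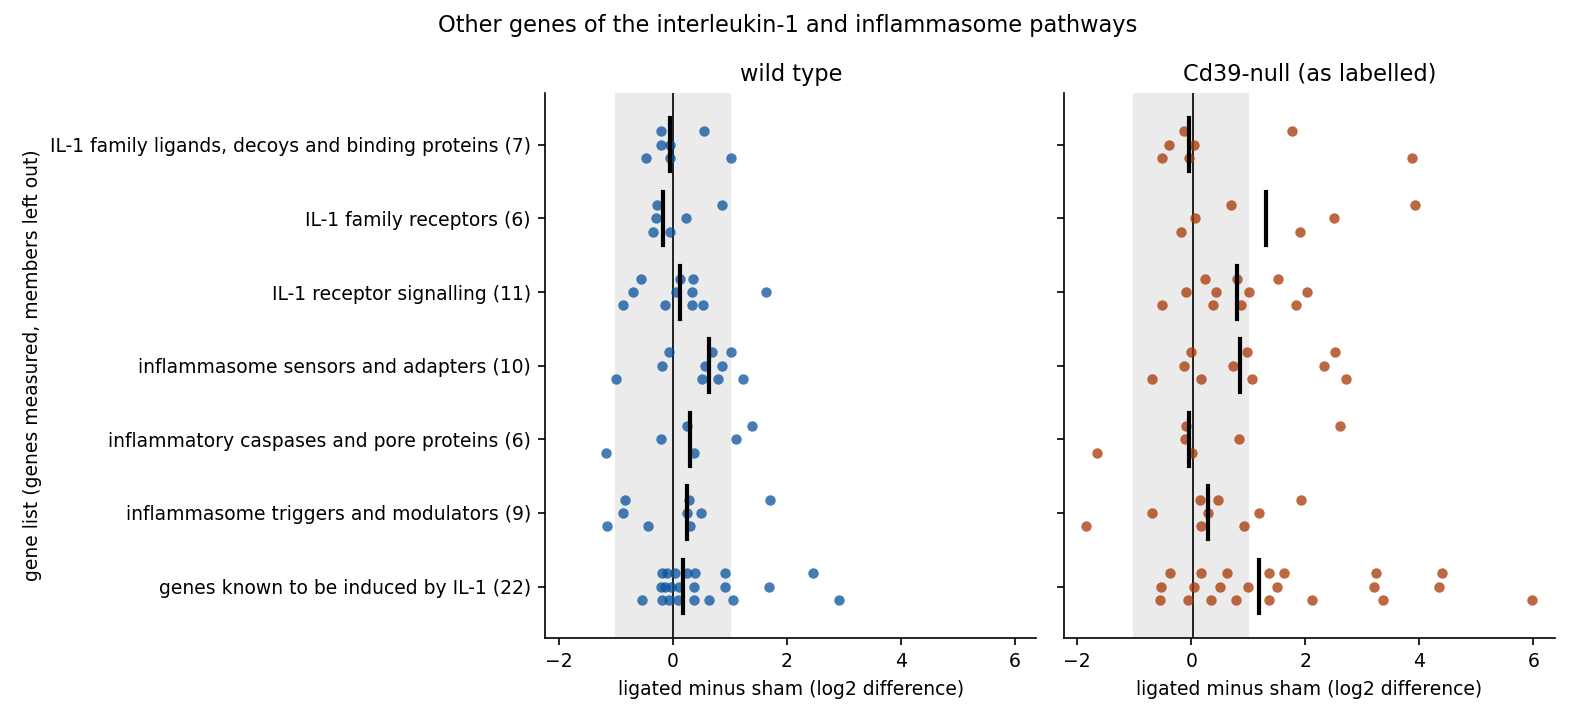
Points are genes of 7 pathway lists (vertical axis, number measured in brackets, the 10 genes left out), placed by their log2 difference of ligated minus sham (horizontal axis) in wild type and in the pair labelled Cd39-null; black bars are list medians, the thin line is the median of all genes, and the grey band marks differences under 2-fold. The median of the interleukin-1 induced genes is 0.18 in wild type and 1.18 in the pair labelled Cd39-null, and that of the receptors -0.17 and 1.30.

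The genes whose pattern over the 4 arrays was most like that of Il1b were found by the root mean square distance between values centred on each gene's mean, over the 14115 genes kept. The nearest were Adam8 at 0.11 log2, Ccr1 at 0.17, Cd33 at 0.20, Sema4a at 0.20 and Fgr at 0.21. Adam8 was 3.47 log2 in sham and 4.91 in ligated wild-type vein, beside 3.44 in sham Cd39-null vein and 7.08 for the array labelled Cd39-null, ligated. Each distance rests on 4 arrays, and whether genes lie this close by chance was not tested.

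Markers of cells that the vein pieces could hold moved with the arrays as well. All 12 endothelial markers were above background on all arrays. All 10 smooth muscle markers were so on 3 arrays, and 9 of 10 on the array labelled Cd39-null, ligated. Background lay between the 36.5th and 41.9th percentile of the 18820 genes on these arrays. Most genes were thus above it too, and these counts do not single out the vein wall. Monocyte and macrophage markers averaged 5.09 log2 in sham and 7.06 in ligated wild-type vein, beside 5.28 in sham Cd39-null vein and 7.12 for the array labelled Cd39-null, ligated. Of these 13 markers, all above background on every array, 12 were at least 2-fold higher after ligation in wild type and 9 in the pair labelled Cd39-null. The means of the ligated arrays were close, but single markers went both ways between them, with 3 of 13 at least 2-fold higher and 3 at least 2-fold lower on the array labelled Cd39-null. The part of these cells in the ligation differences of Il1b, Gsdmd and the other genes was not tested.

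Neutrophil markers averaged 4.24 log2 in sham and 4.47 in ligated wild-type vein, beside 4.99 in sham Cd39-null vein and 6.36 for the array labelled Cd39-null, ligated. Of 13 markers, 2 were at least 2-fold higher after ligation in wild type, and 5 were higher and 1 lower in the pair labelled Cd39-null. Between the ligated arrays 9 of 13 were at least 2-fold higher as labelled Cd39-null and 0 lower. Between the sham arrays 5 of 13 were higher in Cd39-null and 0 lower. At or under background were 5, 3, 4 and 3 of the 13 on the 4 arrays, in the order of the averages above. Platelet and megakaryocyte markers averaged 5.42, 4.35, 4.00 and 7.94 log2 in that order, with 5 of 8 lower in the wild-type pair and 8 of 8 higher in the pair labelled Cd39-null. Both lists were highest on the array where Il1b, Il1rn, Il1a, Nlrp3, Pycard, Gsdmd and Il1r2 were highest, and their part in those values was not tested.

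B cell markers averaged 3.05 log2 in sham and 2.49 in ligated wild-type vein, beside 4.67 in sham Cd39-null vein and 2.68 for the array labelled Cd39-null, ligated. Adipocyte markers averaged 5.61, 5.15, 7.71 and 4.93 and T and NK cell markers 2.89, 2.61, 3.73 and 2.85 in that order. At or under background on those arrays were 3, 5, 0 and 4 of the 7 B cell markers. For adipocyte markers these counts were 1, 2, 0 and 2 of 10, and for T and NK cell markers 6, 5, 1 and 5 of 10. The B cell and T and NK cell means outside Cd39-null, sham, are thus near background. These 3 lists were highest in Cd39-null, sham, with 6 of 7 B cell, 8 of 10 adipocyte and 3 of 10 T and NK cell markers at least 2-fold above wild type, sham. Casp1 was highest on the same array, and the part of these cells in its value was not tested. Endothelial markers averaged 6.93, 5.91, 5.87 and 5.97 and smooth muscle markers 7.36, 6.75, 5.80 and 5.26 in that order. Fibroblast markers averaged 6.30, 6.79, 6.02 and 5.97. Il1r1 was 6.77, 7.55, 6.37 and 7.50 on the same arrays, and the part of these cells in its values was not tested.

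**Figure D5:**
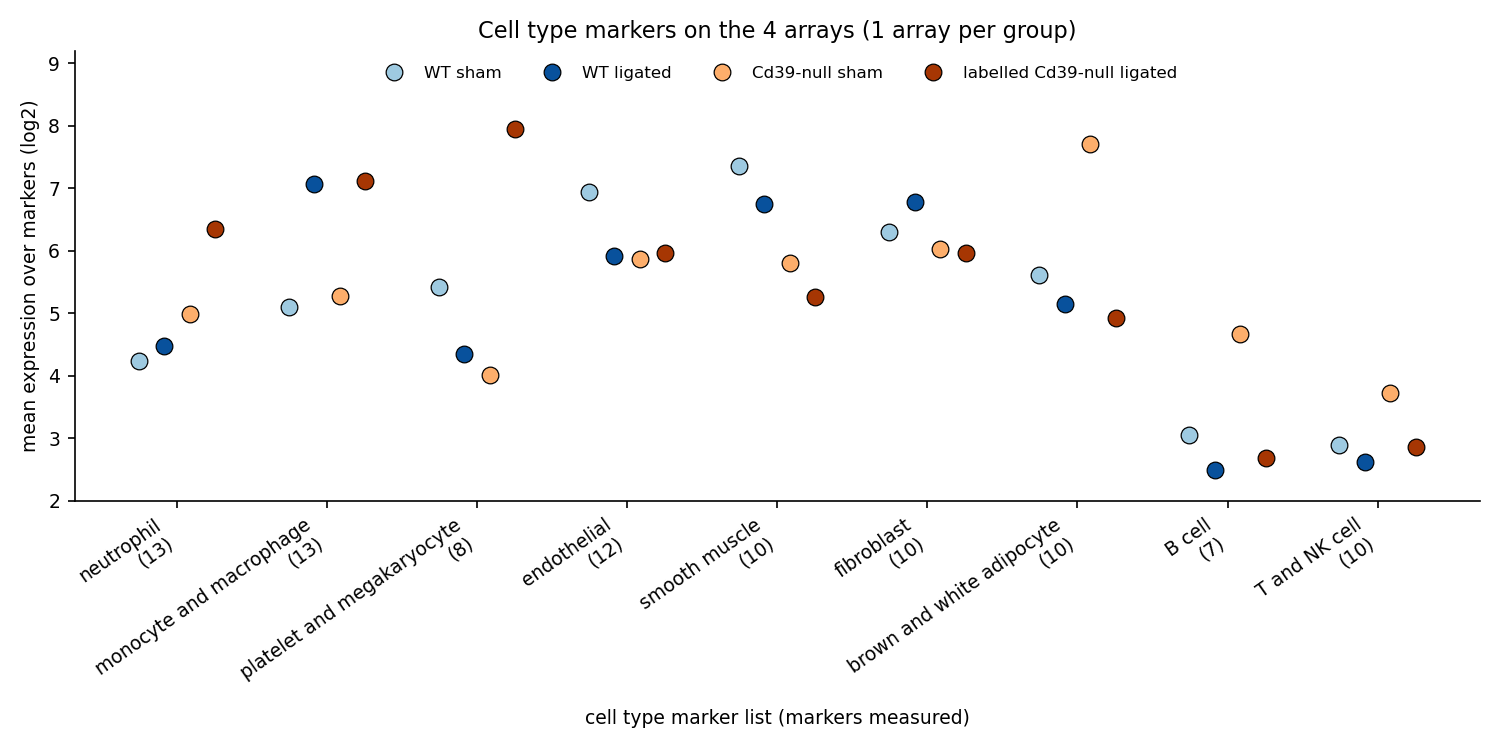
Points give the mean log2 expression over the markers of each cell type list (horizontal axis, number measured in brackets) on the 4 arrays (colours), with 1 point per array and no error bar. Monocyte and macrophage markers are near 7.1 on both ligated arrays, platelet markers reach 7.94 on the array labelled Cd39-null, ligated, and adipocyte and B cell markers peak in Cd39-null, sham, at 7.71 and 4.67.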

How the data were processed

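Total RNA was extracted with Trizol and amplified from 50 ng to cDNA, of which 3 µg was biotinylated for an Affymetrix array, per the labels' protocols. The deposited values are log2 expression of each probe set. The submitters' processing notes name RMA and oligo, with no version, and the genome build was not given in the sources used here. In general RMA subtracts background, equalises the arrays' distributions and summarises probes, so a global shift in RNA content would be hidden. The values were used as deposited. Of 35556 probe sets, 21218 had 1 gene symbol in the platform's annotation, 1881 several and 12457 none. The brightest probe set stood for each of 18820 genes, and genes with a mean at or above the 25th percentile were kept. No read depth applies, and the number of arrays limits the precision.

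Differences are between 1 array a group and have no test; at least 2-fold is the line used. The additive model was fitted with limma 3.58.1 in R 4.3.3 on all genes kept, after the code was tested on simulated data. Alternatives were 3 rescalings, 2 filters, the mean of probe sets, a 1.5-fold line, another sham reference, other limma settings and values floored at background, the last chosen after the data were seen. Named besides the 10 genes were Entpd1, the 5 genes nearest Il1b and up to 4 genes of each pathway list. The pathway genes named were those with the largest absolute mean ligation difference. From the marker lists only counts and means are given. Older symbols were matched through RefSeq for 4 interleukin-1 relatives. The 10 genes and all lists were chosen with earlier results of these data known.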

Additional observations from a re-analysis of the deposited data

Results flagged for a closer look

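For 5 of the 10 genes the wild-type and Cd39-null pairs, or the sham and ligated pairs, differed in opposite directions. Each direction rests on 1 array a group, so the difference between them was not tested. Il1a had ligation differences of -0.17 log2 in wild type and 1.66 in the pair labelled Cd39-null, 1.83 apart, with 3 of its 4 values not above background. Casp1 had ligation differences of 0.03 and -1.43, which are -1.46 apart, and the first turned negative after each rescaling (-0.11 after repeated quantile normalisation and -0.07 after cyclic loess). Il18 had -0.05 and 0.11, only 0.16 apart, and the second value turned negative after each rescaling. Nlrp3 was lower in Cd39-null than in wild type by -0.26 log2 among the sham arrays, both under background and so without a readable direction, and higher by 0.70 among the ligated arrays, 0.97 apart. Gsdmd had genotype differences of -0.35 and 0.09 in the same arrays, 0.45 apart.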

How the results depend on the processing

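Of 350 values of single genes under alternatives, 337 moved by less than the gene's moderated residual SD in limma, 13 moved by more and 0 of those at least 2-fold apart changed sign. Many of these values could not move. The filters and the mean of probe sets leave a gene read from 1 probe set unchanged, and the background floor changes only values under it. With a 1.5-fold line, 4 of 10 genes instead of 2 were higher after ligation in wild type. With wild type, sham, as the reference, 0 of 10 genes instead of 1 were at least 2-fold lower on the array labelled Cd39-null, ligated, since Casp1 differed by -0.15. On the higher side 5 of 10 instead of 6 were at least 2-fold apart with this reference, since Il1r1 differed by 0.73. Over all genes, the 1.5-fold line gave 2235 higher and 1661 lower instead of 932 and 512 in wild type, 3103 and 2042 instead of 1537 and 818 in the pair labelled Cd39-null, 1230 and 1962 instead of 416 and 499 between sham arrays, 1186 and 1333 instead of 510 and 375 between ligated arrays, and 2492 and 1956 instead of 987 and 776 for the difference of ligation differences. Il18's mean ligation difference of 0.03 became -0.14 after repeated quantile normalisation, -0.11 after cyclic loess and -0.081 after median centring. limma called 0 genes under each of the 11 settings run for ligation, where the lowest adjusted p of the 10 genes was 0.0780. The adjusted limma p for ligation ranged from 0.0780 to 0.213 for Gsdmd, 0.0892 to 0.248 for Il1b, 0.130 to 0.242 for Il1r1, 0.130 to 0.291 for Il1rn and 0.183 to 0.331 for Nlrp3. Among sham arrays, the share of higher genes among those at least 2-fold apart was 45.5% as deposited, 58.1% after cyclic loess and 60.3% after median centring. No array could be left out and no replicates could be paired, since each group has 1 array of 1 pool. Background limits what Il1a and Nlrp3 can show.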
